A study of Mus musculus with 36 samples.

Results

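Neurotrophic factors and the receptors that bind them were followed in enteric glial cells (EGCs), the glia of the gut wall, exposed to secreted factors of a colorectal tumor. The 9 genes were chosen by name out of 43472 in the count table. They comprise 3 ligands of the glial cell line-derived neurotrophic factor family (Gdnf, Artn, Nrtn), the neurotrophins Bdnf and Ntf3, the cytokine Cntf, and the GDNF family receptor alpha genes Gfra1, Gfra2 and Gfra3. The question asked of them here was whether medium conditioned by tumor tissue shifts the supply of neurotrophic ligands or the receptors for them, relative to medium from healthy colon and to untreated cells.

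All groups held wild-type (WT) EGCs grown from neurospheres of embryonic mouse intestine, with no genetic difference between them. TME-CM cells received medium conditioned overnight by digested orthotopic tumors of MC38, a murine colon carcinoma line. H-CM cells received the equivalent medium from healthy colon, and unstimulated cells received neither. RNA was sequenced from the 3′ end after 6, 12 or 24 h, with 4 libraries in each of the 9 groups and 36 in all. As models the cultures are embryonic, derived from neurospheres, and exposed to a medium made by every cell type of the digested tissue. The labels number the replicates but do not say whether they were separate cultures, so p-values measure the spread between these libraries, which may be technical.

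Ligands of the GDNF family each favor a GFRA co-receptor (GDNF with GFRA1, neurturin with GFRA2, artemin with GFRA3), and the pair signals through the RET tyrosine kinase, a pathway that the enteric nervous system needs to form. BDNF and neurotrophin-3, encoded by Ntf3, signal through TRK kinases and the p75 receptor NGFR. CNTF acts through CNTFR together with LIFR and gp130, the product of Il6st, and supports neurons and glia after injury.

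Library depth limited the precision of these values, and the number of genes detected also differed between libraries. Totals ranged from 13518 to 5244763 counts at 6 h (median 1526580), from 2005239 to 5961933 at 12 h and from 1608018 to 7552509 at 24 h. The smallest library was H-CM replicate 4 at 6 h. At the same time, TME-CM replicates 1 and 3 had 10120 and 10433 genes detected in 4158689 and 2919357 counts. Shallower libraries had more, with 13599 genes in 1286936 counts for unstimulated replicate 1 and 13481 in 1321201 for TME-CM replicate 2. Levels are given in CPM, read counts brought to a common library size by the trimmed mean of M-values (TMM), and 3 counts corresponded to 0.328 to 1.49 CPM at 24 h, 0.411 to 1.53 CPM at 12 h and 0.640 to 110.5 CPM at 6 h. No pair of libraries held identical counts. The glial markers Sox10 and S100b averaged 65.7 and 62.4 CPM at 12 h and 24 h and had counts in all 36 libraries, whereas Gfap averaged 3.45 CPM. Neuronal Uchl1 (193 CPM), smooth muscle Acta2 (3065 CPM) and the fibroblast markers Col1a1 (3172 CPM) and Dcn (1317 CPM) were also present. Levels varied within a cell type, with neuronal Elavl4 at 71.0 and Snap25 at 4.36 CPM, and smooth muscle Tagln at 516 and Myocd at 0.129 CPM. Markers of other cell types were thus expressed, while epithelial Epcam was at 0 in 30 libraries. Whether glia or other cells expressed these markers was not tested. For unstimulated cultures, the paper reports strong enrichment of glial markers and minimal levels of others, from a partly different set of genes. In bulk RNA, a change in the number of cells of a type and a change in RNA per cell cannot be told apart.

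In GRCm38 (the assembly also called mm10), Gdnf lies on chr15:7810846-7837575 (+), Artn on chr4:117926162-117929763 (-), Nrtn on chr17:56751325-56757530 (-), Bdnf on chr2:109674700-109727007 (+) and Ntf3 on chr6:126101412-126166910 (-). Cntf lies on chr19:12763660-12765632 (-), Gfra1 on chr19:58235604-58455909 (-), Gfra2 on chr14:70890120-70979838 (+) and Gfra3 on chr18:34689898-34720387 (-). Reads were counted over exons. Of the 1073 exon bases of Cntf, 847 are shared with Zfp91 on the same strand, so counts of Cntf are uncertain. Bdnf shares 896 of 6217 exon bases with the antisense gene Gm45346, and Gfra1 416 of 5476 with the antisense gene Gm16277. The strand setting of the counting was not found in the sources used here, so reads of these antisense pairs may not be separated.

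Artn, which encodes artemin, a survival factor for sensory and sympathetic neurons, had the largest log2 fold change between the media of any member tested at 12 h and 24 h. At 12 h, the 4 TME-CM libraries held 14.7, 8.0, 9.33 and 9.0 CPM. The H-CM libraries held 3.23, 1.94, 0.684 and 3.37 CPM, and the unstimulated libraries 2.54, 0, 7.41 and 2.33 CPM. Every TME-CM library was thus above every library of the other groups. The log2 fold change was 2.15 ± 0.71 (SE) against H-CM with an edgeR adjusted p of 0.173, and 1.69 ± 0.71 against unstimulated cells with an edgeR adjusted p of 0.281. Neither comparison passed the threshold of 0.05 on the adjusted p. With DESeq2, which was run as an alternative, the difference from H-CM was 2.16 with an adjusted p of 0.0439. Artn counts were low, at 20 to 72 in the TME-CM libraries and 3 to 23 in the H-CM libraries.

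At 24 h, Artn measured 7.79, 8.44, 9.28 and 4.53 CPM in TME-CM, 0.598, 5.35, 2.08 and 1.49 CPM in H-CM, and 5.52, 1.28, 1.41 and 1.48 CPM in unstimulated cells. TME-CM replicate 4 fell below H-CM replicate 2 and unstimulated replicate 1, so the groups overlapped. Artn rose against unstimulated cells by 1.71 ± 0.54 (edgeR adjusted p = 0.0493), a 3.27-fold difference. Against H-CM the log2 fold change was 1.57 ± 0.54 (edgeR adjusted p = 0.106). The call against unstimulated cells was narrow. It was lost when any of TME-CM replicates 1, 2 or 3 or unstimulated replicates 2, 3 or 4 was left out (adjusted p from 0.0709 to 0.160 in edgeR), and held without TME-CM replicate 4 (0.0441) or unstimulated replicate 1 (0.00344). Conversely, leaving out H-CM replicate 2 brought the difference from H-CM to 2.36 with an edgeR adjusted p of 0.0259. H-CM and unstimulated cells differed by 0.14 ± 0.58 at 24 h (edgeR adjusted p = 0.978), a value with no stable sign, since it was -0.65 without H-CM replicate 2. The change of the TME-CM over H-CM difference from 12 h to 24 h was -0.55 ± 0.91 (edgeR adjusted p = 1.0), which did not pass and turned to 0.24 without H-CM replicate 2.

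Artn, Gfra1 and Gfra2 were the members called higher with TME-CM than in unstimulated cells at 24 h. Promoter sequences are shown for Artn and Gfra1, and that of Gfra2 was not analysed here. They are from RefSeq on GRCm38.p6, read 5′ to 3′ on the strand of the gene, and span 250 bases before to 50 bases after an annotated start, at chr4:117929714-117930013 (-) for Artn and chr19:58455349-58455648 (-) for Gfra1. Capitals mark matches on either strand to an NF-kB motif, searched here as GGG and CC with 5 bases of any kind between them.
Artn: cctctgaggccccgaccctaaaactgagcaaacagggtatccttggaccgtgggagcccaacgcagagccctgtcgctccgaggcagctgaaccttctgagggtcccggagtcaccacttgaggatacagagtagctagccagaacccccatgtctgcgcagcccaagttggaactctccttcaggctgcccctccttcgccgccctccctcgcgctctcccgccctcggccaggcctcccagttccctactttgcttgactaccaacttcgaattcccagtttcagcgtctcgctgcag
Gfra1: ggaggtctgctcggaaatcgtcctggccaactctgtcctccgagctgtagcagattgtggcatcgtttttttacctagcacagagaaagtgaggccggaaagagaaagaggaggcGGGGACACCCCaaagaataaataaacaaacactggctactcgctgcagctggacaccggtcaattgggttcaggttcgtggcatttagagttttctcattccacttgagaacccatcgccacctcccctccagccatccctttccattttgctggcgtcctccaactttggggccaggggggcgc
The Gfra1 window held 2 overlapping matches, starting 135 and 134 bases before the start, and the Artn window held none. Such a match was present in 50.8% of the 32851 promoters in the table, so it does not set Gfra1 apart. Neither window held TGANTCA (AP-1, 7.81% of promoters), TTCNNNGAA (STAT, 8.30%) or TGACGTCA (CRE, 1.79%) on either strand. A match or its absence describes these letters in this window only.

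**Figure D1:**
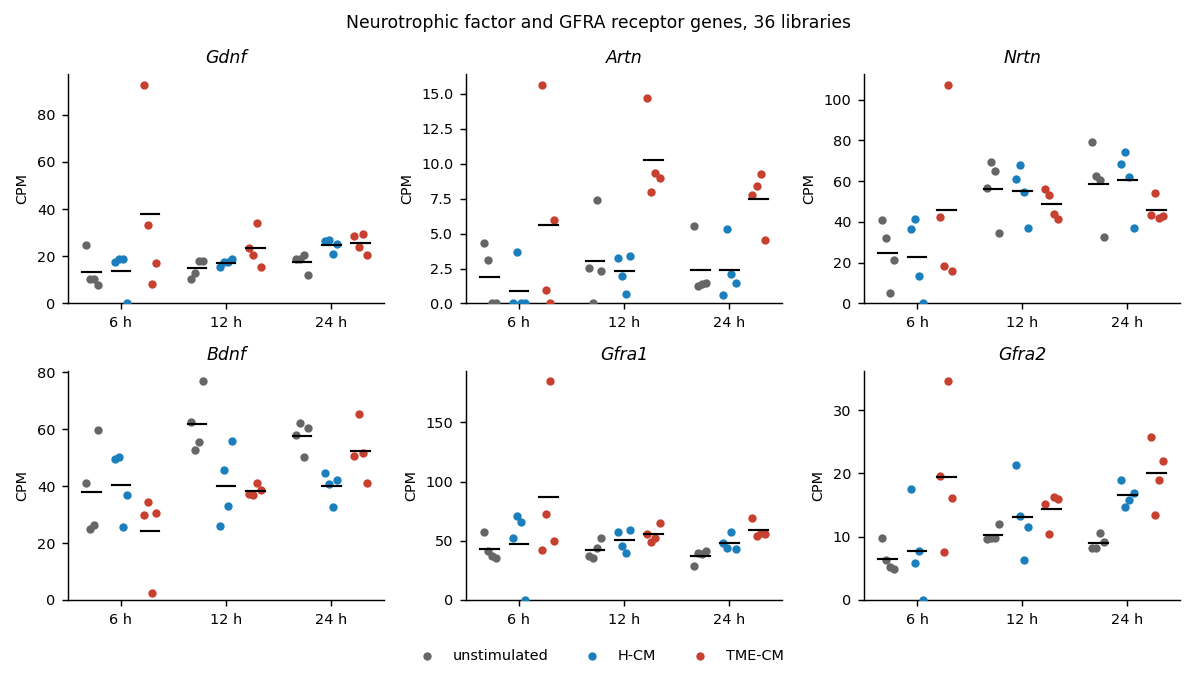
Levels of 6 genes in CPM (linear axis from 0) in the 36 libraries, ordered within each group by replicate number, with a bar at the mean of each group. The 4 TME-CM points of Artn at 12 h (8.0 to 14.7 CPM) lie above all other 12 h points, the 24 h points of Gfra1 and Gfra2 are lowest in unstimulated cells, and single libraries set the TME-CM means of Gdnf, Nrtn and Gfra1 at 6 h.

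Gdnf, the founding ligand of its family and a growth factor of enteric neural progenitors, had its highest single value at 6 h. TME-CM libraries then held 92.7, 33.4, 8.22 and 17.0 CPM, against 17.5, 19.0, 18.9 and 0 CPM in H-CM and 24.8, 10.2, 10.5 and 7.68 CPM in unstimulated cells. TME-CM replicate 1 alone lay far above the rest, and replicate 3 lay below 3 of the H-CM libraries. The log2 fold change against H-CM was 1.13 ± 0.87 (edgeR adjusted p = 0.911) and fell to 0.20 without TME-CM replicate 1. Against unstimulated cells it was 1.47 ± 0.86 (edgeR adjusted p = 0.815) and 0.51 without that library. The share of counts taken by Yam1, the most abundant entry of the table, also differed at this time point. It was 11.0 to 14.2% in TME-CM replicates 1, 3 and 4 but 37.8% in replicate 2, and 43.2 to 46.3% in unstimulated replicates 1 to 3. It was 43.9 to 48.6% in H-CM replicates 1 to 3 and 13.1% in unstimulated replicate 4. The share varied at the later times too, from 12.6 to 39.9% at 12 h and from 12.7 to 35.1% at 24 h. With Yam1 taken out of the table, the Gdnf difference from H-CM at 6 h was 1.15.

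At 12 h, Gdnf was 23.7, 20.4, 34.1 and 15.4 CPM in TME-CM, 15.6, 17.4, 17.6 and 18.7 CPM in H-CM, and 10.2, 13.1, 18.0 and 18.1 CPM in unstimulated cells. The lowest TME-CM library lay below all H-CM libraries and within the unstimulated range, so the groups overlapped. Log2 fold changes were 0.44 ± 0.29 against H-CM (edgeR adjusted p = 0.663) and 0.63 ± 0.29 against unstimulated cells (edgeR adjusted p = 0.375). By 24 h the Gdnf ranges of the media overlapped, at 28.6, 23.8, 29.3 and 20.6 CPM with TME-CM and 26.3, 26.9, 20.98 and 25.3 CPM with H-CM, whereas unstimulated cells held 19.1, 18.7, 20.7 and 12.2 CPM. Every H-CM library lay above every unstimulated library, and TME-CM replicate 4 lay just below unstimulated replicate 3. The differences from unstimulated cells were 0.54 ± 0.19 for TME-CM (edgeR adjusted p = 0.0952) and 0.49 ± 0.20 for H-CM (edgeR adjusted p = 0.316), both short of the threshold. Between the media the difference was 0.05 ± 0.19 (edgeR adjusted p = 0.946), and its sign depended on single libraries. The H-CM level at 24 h exceeded that at 12 h by 0.51 ± 0.24 (edgeR adjusted p = 0.772).

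Nrtn, encoding neurturin, a factor for postmitotic enteric neurons, had lower means with TME-CM than with either control at 12 h and 24 h, without passing the test. At 24 h it was 43.6, 54.1, 42.1 and 42.8 CPM in TME-CM, 68.2, 74.6, 62.0 and 37.1 CPM in H-CM and 79.2, 62.8, 60.5 and 32.6 CPM in unstimulated cells. Replicate 4 of each control group lay below all TME-CM libraries, and the other 3 lay above them, so the groups overlapped. Log2 fold changes were -0.44 ± 0.23 against H-CM (edgeR adjusted p = 0.365) and -0.37 ± 0.23 against unstimulated cells (edgeR adjusted p = 0.435). At 12 h the group means were 48.7 ± 7.17 CPM in TME-CM, 55.1 ± 13.2 CPM in H-CM and 56.3 ± 15.5 CPM in unstimulated cells (SD, n = 4). These differences, -0.17 ± 0.24 and -0.21 ± 0.25 on the log2 scale, were within the spread of the libraries. At 6 h, TME-CM replicate 3 held 107 CPM beside 16.2 to 42.2 CPM in the other TME-CM libraries, and the difference from H-CM of 0.70 ± 0.76 turned to -0.15 without it.

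Bdnf, the ligand of TRKB and a product of both neurons and glia, had lower means in both conditioned media than in unstimulated cells at 12 h and 24 h, without passing the edgeR test. At 12 h, unstimulated cells held 62.6, 52.9, 55.6 and 76.9 CPM, TME-CM cells 37.4, 36.8, 41.0 and 38.6 CPM and H-CM cells 26.1, 45.7, 33.1 and 55.9 CPM. All TME-CM libraries lay below all unstimulated libraries, while H-CM replicate 4 reached into their range. The log2 fold change from unstimulated cells was -0.70 ± 0.23 for TME-CM (edgeR adjusted p = 0.110) and -0.64 ± 0.23 for H-CM (edgeR adjusted p = 0.626). Neither passed, although a model of only TME-CM and unstimulated libraries gave the former an edgeR adjusted p of 0.0344.

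At 24 h, Bdnf was 57.9, 62.2, 50.3 and 60.4 CPM in unstimulated cells, 44.5, 40.8, 32.6 and 42.1 CPM in H-CM and 50.6, 65.2, 51.7 and 41.3 CPM in TME-CM. At this time every H-CM library lay below every unstimulated library, whereas TME-CM spanned their range. The H-CM difference of -0.54 ± 0.16 had an edgeR adjusted p of 0.0850 and a DESeq2 adjusted p of 0.0448. For TME-CM the difference was -0.16 ± 0.15 (edgeR adjusted p = 0.687). TME-CM exceeded H-CM by 0.38 ± 0.16 (edgeR adjusted p = 0.213), and TME-CM at 24 h exceeded TME-CM at 12 h by 0.44 ± 0.20 (edgeR adjusted p = 0.559). At 6 h, TME-CM replicate 3 held 2.47 CPM, the lowest Bdnf level of all 36 libraries, beside 29.9 to 34.4 CPM in the other 3. The same library had the highest Nrtn, Gfra1 and Gfra2 levels of all 36.

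Ntf3, which encodes neurotrophin-3, a factor for enteric neurons and interstitial cells, stayed close to the detection limit. Its counts were 0 to 5 at 6 h, 0 to 12 at 12 h and 0 to 25 at 24 h, and it was abundant enough to be tested against the controls only at 24 h. There its mean level was 1.19 ± 1.09 CPM in TME-CM, 1.35 ± 1.12 CPM in H-CM and 1.28 ± 0.722 CPM in unstimulated cells (SD, n = 4). The difference between the media was -0.57 ± 0.78 (edgeR adjusted p = 0.810) and rested on the 25 counts of H-CM replicate 3, without which it was 0.01.

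Cntf, the injury-released cytokine, had 3 and 2 counts in unstimulated replicates 1 and 2 at 12 h, 1 and 2 counts in TME-CM replicates 1 and 4 at 24 h, and 0 counts elsewhere. It was below the count filter in every comparison. At 24 h a count of 0 allows a level of up to 0.328 to 1.49 CPM, depending on the library, and covers counting error only. No library held more than 3 counts. How reads on exon bases shared with Zfp91 were assigned was not found in the sources used here. Reads of Cntf may thus have been left out, or reads of Zfp91 included, and the limit given for a count of 0 does not cover this.

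**Figure D2:**
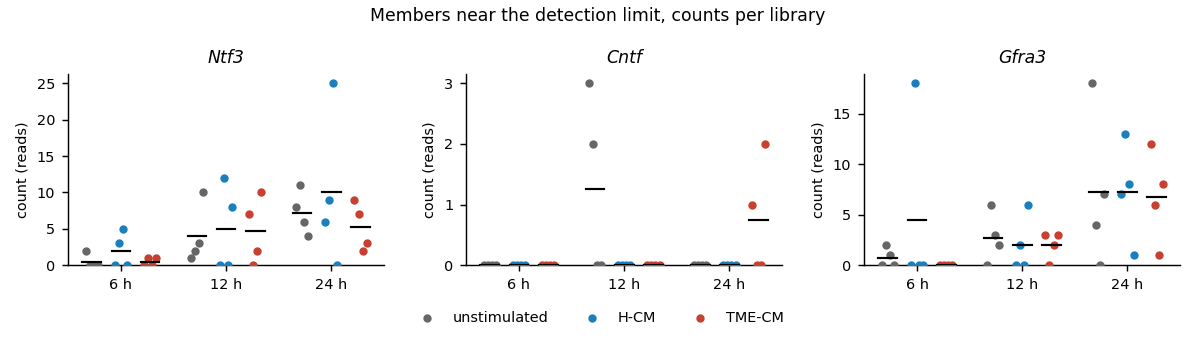
Counts (linear axis from 0) of Ntf3, Cntf and Gfra3 in each of the 36 libraries, with a bar at the mean of each group. Most points sit at or near 0, with maxima of 25 counts for Ntf3, 3 for Cntf and 18 for Gfra3.

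Gfra2, the preferred co-receptor of neurturin, changed most clearly among the receptors. At 24 h it was 25.7, 13.4, 19.0 and 22.0 CPM in TME-CM, 18.9, 14.7, 15.7 and 16.8 CPM in H-CM and 8.28, 8.17, 10.6 and 9.14 CPM in unstimulated cells. Every library of both media lay above every unstimulated library. Gfra2 rose 2.23-fold with TME-CM (1.15 ± 0.22 on the log2 scale, edgeR adjusted p = 0.000761) and 1.81-fold with H-CM (0.86 ± 0.22, edgeR adjusted p = 0.0410). The TME-CM call held without any single library (highest adjusted p 0.00635), whereas the H-CM call was lost without any of the 8 libraries (adjusted p from 0.0640 to 0.138). Between the media the difference was 0.29 ± 0.21 (edgeR adjusted p = 0.568), so TME-CM and H-CM were not separated.

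At 12 h, Gfra2 ranged from 10.4 to 16.2 CPM in TME-CM, from 6.39 to 21.2 CPM in H-CM and from 9.67 to 12.0 CPM in unstimulated cells. These ranges overlapped, with log2 fold changes from unstimulated cells of 0.47 ± 0.36 for TME-CM (edgeR adjusted p = 0.732) and 0.31 ± 0.36 for H-CM (edgeR adjusted p = 0.997). At 6 h, TME-CM libraries held 19.6, 7.64, 34.5 and 16.2 CPM, and the differences of 1.01 ± 1.06 from H-CM and 1.52 ± 1.04 from unstimulated cells did not pass (edgeR adjusted p = 0.925 and 0.869).

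Gfra1, the co-receptor of GDNF and a marker of enteric progenitors, followed the same order at 24 h. It was 68.9, 54.1, 56.4 and 55.9 CPM in TME-CM, 47.9, 44.1, 57.3 and 43.1 CPM in H-CM and 29.1, 40.0, 39.1 and 41.5 CPM in unstimulated cells. TME-CM and H-CM each lay wholly above the unstimulated libraries, and H-CM replicate 3 lay within the TME-CM range. Gfra1 rose 1.56-fold with TME-CM against unstimulated cells (0.64 ± 0.15 on the log2 scale, edgeR adjusted p = 0.00532), and this call held without any single library (highest adjusted p 0.0344). The H-CM difference of 0.36 ± 0.15 did not pass (edgeR adjusted p = 0.345), nor did the difference between the media of 0.28 ± 0.15 (edgeR adjusted p = 0.377).

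Before 24 h, Gfra1 was less clearly separated. At 12 h it was 55.3, 49.2, 52.5 and 65.3 CPM in TME-CM, 57.3, 45.7, 39.9 and 59.4 CPM in H-CM and 37.1, 35.6, 43.7 and 52.1 CPM in unstimulated cells. The TME-CM differences were 0.38 ± 0.21 from unstimulated cells (edgeR adjusted p = 0.500) and 0.14 ± 0.20 from H-CM (edgeR adjusted p = 0.872). At 6 h, TME-CM replicate 3 held 184 CPM beside 42.0 to 72.6 CPM in the other 3, and the difference from H-CM of 0.60 ± 0.55 turned to -0.09 without it. Against unstimulated cells the 6 h difference was 0.99 ± 0.54 (edgeR adjusted p = 0.815).

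Gfra3, the preferred co-receptor of artemin, had 0 to 18 counts per library at 6 h, 0 to 6 at 12 h and 0 to 18 at 24 h. Its mean level at 24 h was 1.38 ± 0.917 CPM in TME-CM, 1.22 ± 0.698 CPM in H-CM and 1.505 ± 2.04 CPM in unstimulated cells (SD, n = 4). No direction was visible in these values, and the difference between the media was -0.01 ± 0.91 (edgeR adjusted p = 0.997). All 4 TME-CM libraries at 6 h were at 0.

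Ranked over the 9 groups, for Gdnf, the means ran from 37.8 ± 38.0 CPM (TME-CM, 6 h) through 25.6 ± 4.11 CPM (TME-CM, 24 h) and 24.9 ± 2.68 CPM (H-CM, 24 h) down to 13.3 ± 7.80 CPM (unstimulated, 6 h), and each group overlapped the next. Artn was highest in TME-CM at 12 h (10.3 ± 3.01 CPM), 24 h (7.51 ± 2.08 CPM) and 6 h (5.64 ± 7.16 CPM), with neighbours overlapping. Gfra2 was highest in TME-CM at 24 h (20.0 ± 5.18 CPM) and lowest in unstimulated cells at 6 h (6.54 ± 2.20 CPM). For Gfra1 the 3 TME-CM groups headed the order, with means of 87.3 ± 66.1 CPM at 6 h, 58.8 ± 6.82 CPM at 24 h and 55.6 ± 6.93 CPM at 12 h, and unstimulated cells at 24 h (37.4 ± 5.65 CPM) closed it. Neighbouring groups overlapped in each of these 4 orders, given as mean ± SD of 4 libraries. The order of Nrtn began with H-CM at 24 h (60.5 ± 16.4 CPM) and ended with unstimulated cells (24.9 ± 15.4 CPM) and H-CM (22.9 ± 19.6 CPM) at 6 h, and the only neighbours without overlap were TME-CM at 24 h (45.6 ± 5.66 CPM) and unstimulated cells at 6 h. Bdnf was highest in unstimulated cells at 12 h (62.0 ± 10.8 CPM) and 24 h (57.7 ± 5.21 CPM) and lowest in TME-CM at 6 h (24.3 ± 14.7 CPM).

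Counted over the members, TME-CM at 24 h gave 3 calls against unstimulated cells, Artn, Gfra1 and Gfra2, all higher, among the 8 members abundant enough to be tested. DESeq2 also made 3 calls, and a single model of all 36 libraries made none of them (edgeR adjusted p of 1.0 for Artn, 0.803 for Gfra1 and 0.443 for Gfra2). Over all 12713 genes tested in this comparison, 9.52% were called. For H-CM against unstimulated cells at 24 h, 1 of 8 was called (Gfra2, higher), beside 2.03% of all genes, while DESeq2 called 2 and the model of all 36 libraries 0. Without overlap of the groups, Gdnf, Gfra1 and Gfra2 were higher and Bdnf lower in H-CM, 4 of 8 tested members, beside 8.17% of all genes tested. The corresponding figures for TME-CM at 24 h were 2 of 8 (Gfra1 and Gfra2) and 13.1%. Both comparisons share the unstimulated libraries. The median log2 fold change of the 8 members was 0.23 in each of them, and that of all genes was below 0.01.

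No member was called between TME-CM and H-CM in the edgeR model of any time point. At 6 h this was 0 of 5 members tested, with 0 at an unadjusted p under 0.05 and 0 in DESeq2, beside 0.0972% of all genes called. At 12 h it was 0 of 6, with 1 member at an unadjusted p under 0.05 (Artn) and 1 in DESeq2 (Artn), beside 1.89% of all genes. At 24 h it was 0 of 8, with 2 at an unadjusted p under 0.05 (Artn and Bdnf) and 0 in DESeq2, beside 5.40% of all genes. Artn at 12 h was the only member whose TME-CM and H-CM libraries did not overlap at 12 h or 24 h, where 7.21% and 11.2% of all genes tested did not overlap. Some alternative edgeR settings did call a member between the media at 6 h or 24 h, as given in the closing section.

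Against unstimulated cells at the earlier times, the edgeR model of each time point likewise called none. TME-CM gave 0 of 5 at 6 h (0 at an unadjusted p under 0.05, 0 in DESeq2, 0.454% of all genes called) and 0 of 6 at 12 h (3 at an unadjusted p under 0.05, namely Artn, Bdnf and Gdnf, 0 in DESeq2, 4.41% of all genes called). H-CM gave 0 of 5 at 6 h (0 at an unadjusted p under 0.05, 0 in DESeq2, 0% of all genes called) and 0 of 6 at 12 h (1 at an unadjusted p under 0.05, Bdnf, 0 in DESeq2, 0.403% of all genes called). Artn and Bdnf were the members that did not overlap between TME-CM and unstimulated cells at 12 h, beside 10.6% of all genes tested.

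From 12 h to 24 h, 0 of 7 members tested changed in edgeR in unstimulated cells (0.0153% of all genes called), in H-CM (0.00763%) or in TME-CM (0.626%), and DESeq2 called 0 in each. At an unadjusted p under 0.05 there were 0, 1 (Gdnf) and 1 (Bdnf). The change of the TME-CM over H-CM difference with time was called for 0 of 7 members both from 12 h to 24 h (0 at an unadjusted p under 0.05, 0% of all genes called) and from 6 h to 24 h (1 at an unadjusted p under 0.05, 0.0155% of all genes called), with 0 in DESeq2 for both. The 1 member was Gfra3, whose TME-CM libraries at 6 h were all at 0, so that its fitted change has no finite size.

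**Figure D3:**
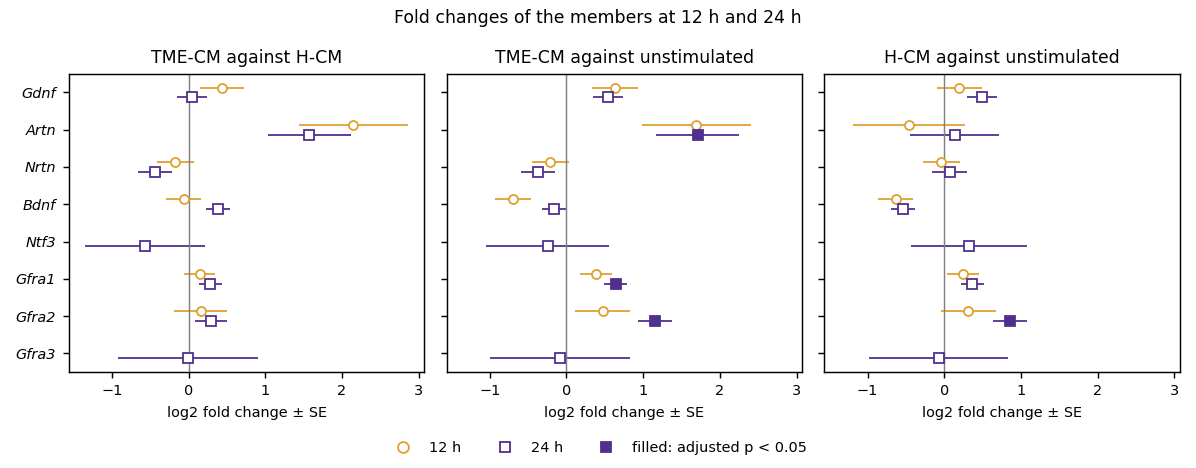
Log2 fold changes with their SE from the edgeR model for 8 members (Cntf was not tested) at 12 h (circles) and 24 h (squares) in 3 comparisons, with filled symbols for an edgeR adjusted p under 0.05. Filled symbols are Artn, Gfra1 and Gfra2 for TME-CM against unstimulated cells at 24 h and Gfra2 for H-CM against unstimulated cells at 24 h, and the widest intervals belong to Artn, Ntf3 and Gfra3.

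Markers of other cell types also differed between the groups at 24 h. Summed over 7 smooth muscle markers, the level at 24 h was 6842 to 7860 CPM in unstimulated cells, 3167 to 3888 CPM in H-CM and 1643 to 2386 CPM in TME-CM, and all 6 markers tested were lower in each medium than in unstimulated cells, beside 9.52% (TME-CM) and 2.03% (H-CM) of all genes called in either direction. Fibroblast markers, 6 in the list, summed to 6083 to 7694, 5035 to 5702 and 6328 to 8027 CPM in the same order. Against unstimulated cells, 2 of 6 were higher and 1 lower with TME-CM, and 0 were higher and 1 lower with H-CM. Between the media, 4 of 6 fibroblast markers were higher and 4 of 6 smooth muscle markers lower with TME-CM, beside 5.40% of all genes called. Glial markers, 9 in the list, summed to 213 to 244 CPM in unstimulated cells, 254 to 275 CPM in H-CM and 224 to 296 CPM in TME-CM, and 1 of 8 tested was higher in TME-CM than in unstimulated cells. Neuronal markers, also 9, summed to 404 to 465, 403 to 487 and 339 to 553 CPM, with 0 of 9 called in edgeR or DESeq2 against unstimulated cells and 1 (TME-CM) and 0 (H-CM) at an unadjusted p under 0.05. Markers of interstitial cells of Cajal (3 genes) summed to 102 to 153, 100.5 to 159 and 51.8 to 104 CPM, and those of endothelium (3 genes) to 34.4 to 51.9, 30.7 to 60.4 and 10.2 to 24.7 CPM. With TME-CM, 1 of 3 Cajal cell markers and 1 of 2 endothelial markers tested were lower than in unstimulated cells. Against H-CM, 2 of 3 and 1 of 2 were lower with TME-CM. H-CM against unstimulated cells gave 0 calls in both lists. Macrophage markers (7 genes) summed to 44.0 to 168, 67.3 to 301 and 57.1 to 295 CPM, and epithelial markers (5 genes) did not exceed 7.29 CPM in any library of that time. The part of these cell markers in the Artn, Gfra1 and Gfra2 differences was not tested.

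Among the 24 libraries of 12 h and 24 h, Gfra1 and Gfra2 had the highest correlation of any pair of the 6 more abundant members (Pearson r = 0.74 of log2 CPM), followed by Gdnf and Gfra2 (0.53) and Artn and Gfra1 (0.51). Nrtn and Gfra1 had the lowest (-0.48). These libraries share their groups and time points, so the values describe the pattern only. Out of 10036 genes, the genes most like Artn were Il1r1, a receptor of interleukin-1 (r = 0.84), Creb3l1 (0.80) and Wfdc17 (0.80). Gfra1 was most like Nav3 (0.81), the matrix metalloproteinase gene Mmp3 (0.80) and Tnfrsf23 (0.79). Gfra2 was most like Sh3pxd2b (0.84), Antxr1 (0.82) and Adamts7 (0.80).

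Of the signalling partners, Ret, the kinase shared by GDNF family ligands, was present in every group. At 24 h it was 13.5 ± 2.24 CPM in TME-CM, 15.6 ± 2.21 CPM in H-CM and 11.1 ± 2.98 CPM in unstimulated cells (SD, n = 4), and the TME-CM differences of -0.21 ± 0.23 from H-CM and 0.26 ± 0.23 from unstimulated cells did not pass (edgeR adjusted p = 0.752 and 0.654). The other GDNF family partners gave 1 call between TME-CM and H-CM. Gdf15, a stress-induced ligand of the related receptor GFRAL, was 100.4 ± 27.5 CPM in TME-CM and 210 ± 87.9 CPM in H-CM at 12 h. Unstimulated cells lay between them, at 147 ± 22.2 CPM. Gdf15 was lower in TME-CM than in H-CM by 1.07 ± 0.27 on the log2 scale (edgeR adjusted p = 0.0419). The media overlapped, since H-CM replicate 1 (102 CPM) lay below TME-CM replicates 2 and 3 (125 and 118 CPM). Of 4 partners tested, 1 was lower at 12 h and 0 passed in edgeR at 24 h, with 1 at an unadjusted p under 0.05 and 1 called in DESeq2, beside 1.89% and 5.40% of all genes called in edgeR at these times. Against unstimulated cells at 12 h, the neural cell adhesion molecule Ncam1 was lower with TME-CM (-1.12 ± 0.20, edgeR adjusted p = 0.00122), and its H-CM difference of -0.63 ± 0.20 did not pass (edgeR adjusted p = 0.398). It was lower at 24 h both with TME-CM (-0.78 ± 0.17, edgeR adjusted p = 0.00455) and with H-CM (-0.77 ± 0.17, edgeR adjusted p = 0.0200).

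Receptors of the neurotrophins were unevenly represented. Ngfr, the p75 receptor, was at 200.1 ± 29.2 CPM in TME-CM, 204 ± 19.3 CPM in H-CM and 176 ± 24.1 CPM in unstimulated cells at 24 h, with a difference between the media of -0.03 ± 0.13 (edgeR adjusted p = 0.953). Ntrk2, which encodes the kinase receptor of BDNF, averaged 0.666 CPM or less in every group at 12 h and 24 h and was below the count filter. Among the 8 neurotrophins and receptors listed, 5 were tested at 24 h, of which 0 passed in edgeR between TME-CM and H-CM (2 at an unadjusted p under 0.05, 0 in DESeq2) and 1 was lower in TME-CM than in unstimulated cells (Ntf5, encoding neurotrophin-4, -2.36 ± 0.76, edgeR adjusted p = 0.0468), beside 5.40% and 9.52% of all genes called. Ntf5 was below the count filter at 6 h. Its call at 24 h was narrow, and whether it rests on single libraries is not given here.

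In the CNTF receptor complex, Cntfr was low, at 3.01 ± 0.497 CPM in TME-CM and 4.06 ± 1.85 CPM in H-CM at 24 h, and Lifr was at 6.70 ± 1.58 and 9.84 ± 2.37 CPM, with edgeR adjusted p of 0.743 and 0.442 between the media. Il6st, the shared gp130 subunit, reached 152 ± 12.2 CPM in TME-CM, 127 ± 3.20 CPM in H-CM and 112 ± 4.19 CPM in unstimulated cells. It rose against unstimulated cells by 0.44 ± 0.11 (edgeR adjusted p = 0.0125) and differed from H-CM by 0.26 ± 0.11 (edgeR adjusted p = 0.244). Lif, a ligand of the same receptor family, was 7.87 ± 1.68 CPM in TME-CM, 2.23 ± 0.210 CPM in H-CM and 4.78 ± 1.27 CPM in unstimulated cells at 24 h. It rose by 1.83 ± 0.36 against H-CM (edgeR adjusted p = 0.00219), and its difference from unstimulated cells was 0.72 ± 0.32 (edgeR adjusted p = 0.214). Lif was the single call among the 6 genes of this list tested between the media at that time, beside 5.40% of all genes called. Clcf1, a further ligand of this family, was higher with TME-CM than in unstimulated cells at 24 h, by 1.19 ± 0.35 on the log2 scale (edgeR adjusted p = 0.0291), and differed from H-CM by 0.57 ± 0.35 (edgeR adjusted p = 0.461). Of the 6 genes of this list tested against unstimulated cells, TME-CM gave 2 higher and 1 lower at 24 h, beside 9.52% of all genes called. At 12 h, TME-CM gave 0 higher and 1 lower of 6, beside 4.41% of all genes called.

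**Figure D4:**
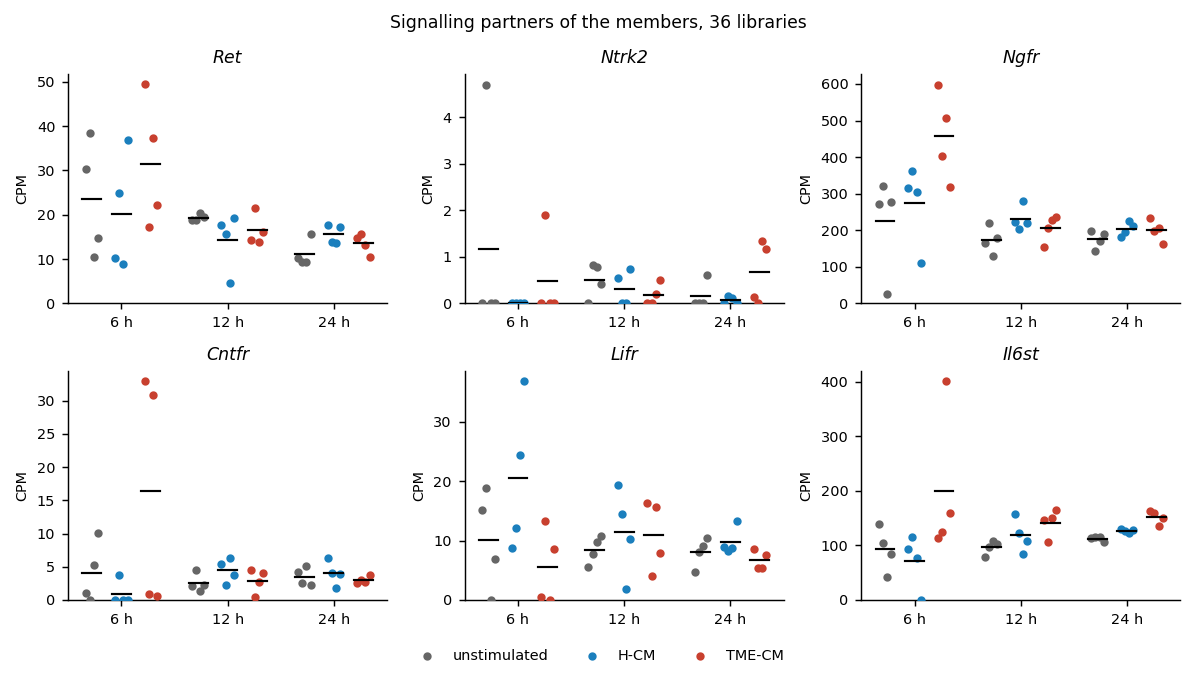
Levels in CPM (linear axis from 0) of Ret, Ntrk2, Ngfr, Cntfr, Lifr and Il6st in the 36 libraries, with a bar at the mean of each group. Ntrk2 stays near 0, Ngfr lies between 144 and 232 CPM in all 24 h libraries, and Il6st at 24 h steps up from unstimulated cells through H-CM to TME-CM.

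Other secreted neurotrophic factors moved in both directions between the media. At 24 h, 1 of 5 tested was higher and 2 were lower in TME-CM, beside 5.40% of all genes called in that comparison. Igf1, the insulin-like growth factor, was 95.7 ± 27.6 CPM in TME-CM and 39.6 ± 4.74 CPM in H-CM, and rose by 1.26 ± 0.19 (edgeR adjusted p = 0.000254). Ptn, which encodes the heparin-binding factor pleiotrophin, was 492 ± 74.2 CPM in TME-CM and 905 ± 252 CPM in H-CM, and fell by 0.88 ± 0.17 (edgeR adjusted p = 0.00202). Its ranges overlapped, since H-CM replicate 1 (561 CPM) lay below TME-CM replicate 2 (572 CPM). The related gene Mdk, encoding midkine, was 90.7 ± 5.41 CPM in TME-CM, 128 ± 12.5 CPM in H-CM and 92.6 ± 4.67 CPM in unstimulated cells. It was lower in TME-CM than in H-CM by 0.49 ± 0.12 on the log2 scale (edgeR adjusted p = 0.0136). H-CM was the group that stood apart, at 0.46 ± 0.12 above unstimulated cells (edgeR adjusted p = 0.0428), whereas TME-CM differed from unstimulated cells by -0.03 ± 0.12 (edgeR adjusted p = 0.949). Ptn was already lower in TME-CM than in H-CM at 12 h, with a log2 fold change of -0.72 ± 0.18 (edgeR adjusted p = 0.0460), a narrow call. The media overlapped there too, with H-CM replicate 3 (498 CPM) below TME-CM replicates 3 and 4 (512 and 522 CPM). Of the 11 adaptors of RET and TRK and feedback genes of ERK signalling, 10 were tested. Between the media 0 passed in edgeR or DESeq2 at 6, 12 or 24 h, beside 0.0972%, 1.89% and 5.40% of all genes called in edgeR. At an unadjusted p under 0.05 there were 0, 1 and 4. Against unstimulated cells at 24 h, 1 was higher with TME-CM and 1 lower with H-CM in edgeR, beside 9.52% and 2.03% of all genes called. DESeq2 also called 1 in each of these 24 h comparisons.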

How the data were processed

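The authors deposited raw counts per gene symbol from QuantSeq 3′ mRNA libraries. Per the methods and the submitters' processing notes, reads were checked with FastQC 0.11.7, stripped of adapters, aligned to mm10 with HISAT2 with multi-mapping reads discarded, handled with SAMtools 1.5 and counted with HT-seq. Which annotation and strand setting were used, and whether reads carried unique identifiers, is not given in the sources used here. Tests were run with edgeR 4.0.16 (limma 3.58.1, R 4.3.3). Low genes were removed with filterByExpr at a minimum count of 10, TMM factors scaled the libraries, and the 12 libraries of a time point entered a robust quasi-likelihood model with a mean for every group. Models of 24 libraries were used for changes with time. Benjamini-Hochberg adjusted p-values cover all genes tested, with calls under 0.05. The script was tested on simulated data. Correlations used log2 CPM with a prior count of 2.

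Members and gene lists were chosen with earlier results of these data known. All 9 members are named, with their main signalling partners (Ret, Ntrk2, Ngfr, Cntfr, Lifr, Il6st), up to 4 genes per list with an adjusted p under 0.05 between TME-CM and H-CM, and for each called member the 3 genes most alike that average 5 CPM or more. Ncam1, Ntf5 and Clcf1 fall outside this rule and were named after their values were seen. Alternatives were DESeq2 1.42.0 and its size factors, no filter, Yam1 left out, only the groups compared, all 36 libraries in a single model, the replicate number as a block, and each library left out in turn. Results on some genes are not reported here. Promoters were taken from RefSeq for 7 of 9 members.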

Additional observations from a re-analysis of the deposited data

Results flagged for a closer look

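In 7 of 52 groups of 4 libraries, a single library stood further from its nearest neighbour, relative to the range of its group, than Dixon's critical value at the 95% level. Chance alone gives about 1 in 20 groups. Artn in unstimulated replicate 1 at 24 h was 5.52 CPM beside 1.28 to 1.48 CPM in the other 3. Gfra1 in TME-CM replicate 1 at 24 h was 68.9 CPM beside 54.1 to 56.4 CPM. Nrtn in TME-CM replicate 2 at 24 h was 54.1 CPM beside 42.1 to 43.6 CPM. Gfra2 in unstimulated replicate 4 at 12 h was 12.0 CPM beside 9.67 to 9.83 CPM. Of the 6 h libraries, Gdnf was 24.8 CPM in unstimulated replicate 1 beside 7.68 to 10.5 CPM, and Bdnf was 2.47 CPM in TME-CM replicate 3 beside 29.9 to 34.4 CPM. Gdnf was 0 CPM in H-CM replicate 4 at 6 h beside 17.5 to 19.0 CPM, in the library of 13518 counts, where 3 counts amount to 110.5 CPM.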

How the results depend on the processing

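Most kinds of alternative moved a count of called members in at least 1 comparison. A single model of all 36 libraries called 1 member between TME-CM and H-CM at 6 h, and 0 at 24 h against unstimulated cells both for TME-CM and for H-CM. The member called at 6 h was not among the 5 tested in the model of that time point, so it was below the count filter there. DESeq2 called 1 for TME-CM against H-CM at 12 h and 2 for H-CM against unstimulated cells at 24 h. Without the filter, 1 was called for TME-CM against H-CM at 24 h, and with only the groups compared, 1 for TME-CM against unstimulated cells at 12 h. With each library left out, counts ran from 0 to 1 for TME-CM against H-CM at 24 h, from 2 to 3 for TME-CM against unstimulated cells at 24 h (Artn was lost without 6 of the 8 libraries), and were 0 throughout for H-CM against unstimulated cells at 24 h. The causes were not tested.

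Some log2 fold changes, none of them called, turned sign when a library was left out. Between TME-CM and H-CM at 6 h, Nrtn ran from -0.15 (without TME-CM replicate 3) to 1.051 and Gfra1 from -0.090 (without the same library) to 0.88. At 24 h, Gdnf ran from -0.038 to 0.14, being negative without H-CM replicate 3, TME-CM replicate 1 or TME-CM replicate 3, and Ntf3 from -1.14 to 0.011 (without H-CM replicate 3). Between H-CM and unstimulated cells, Artn at 12 h ran from -0.83 to 0.46 (without unstimulated replicate 3), Gfra2 at 12 h from -0.0077 (without H-CM replicate 1) to 0.55, and Artn at 24 h from -0.65 (without H-CM replicate 2) to 0.83, also negative without unstimulated replicate 2, 3 or 4. The Artn change from 12 h to 24 h ran from -0.87 to 0.24 (without H-CM replicate 2).

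Same-numbered libraries did not deviate together in every pair of any comparison (correlations of deviations from -0.161 to 0.223), so the numbers were not taken as pairs. Even so, the best match carried the same number for 4 of 4 libraries for H-CM at 24 h against 12 h. It did so for 3 of 4 in H-CM against unstimulated cells at 24 h, and for 1 of 4 in TME-CM against unstimulated cells at 24 h. Sharing between same-numbered libraries thus stays uncertain. Under the replicate block, Artn against unstimulated cells at 24 h had an edgeR adjusted p of 0.0600, leaving 2 calls, and no other call on a member changed. Size factors of DESeq2 moved the median of all genes at 6 h from 0.13 to 0.03 for TME-CM against H-CM and from 0.04 to -0.08 against unstimulated cells. Over all genes, with no library left out, calls ranged between settings from 71 to 896 for TME-CM against H-CM at 24 h (686 as reported), from 265 to 1374 against unstimulated cells (1210) and from 34 to 446 for H-CM against unstimulated cells (258), with the lowest in the single model of 36 libraries. At 12 h the same 3 comparisons ranged from 81 to 465 (230), from 288 to 705 (536) and from 28 to 168 (49), and at 6 h from 2 to 899 (9), from 23 to 1113 (42) and from 0 to 1 (0). Changes from 12 h to 24 h ranged from 0 to 49 (2) in unstimulated cells, from 0 to 63 (1) in H-CM and from 2 to 175 (82) in TME-CM, and changes of the TME-CM over H-CM difference from 0 to 4 (0) from 12 h and from 0 to 104 (2) from 6 h. Leaving out single libraries went beyond these limits in 3 cases, to 353 for the last of these without TME-CM replicate 2 at 6 h, to 19 for TME-CM against unstimulated cells at 6 h without unstimulated replicate 1, and to 23 for H-CM against unstimulated cells at 12 h without unstimulated replicate 1. Depth limits Ntf3, Cntf and Gfra3 at all times and every member at 6 h, where TME-CM replicates 1 and 3 also had few genes detected for their depth.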
